A study of Homo sapiens with 6 samples.

Results

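The values of 7 genes of vasoactive peptide hormones were followed: the natriuretic peptide precursors NPPB and NPPA, the endothelin precursors EDN1 and EDN2, the adrenomedullin precursors ADM and ADM2, and ECE1, the enzyme that cuts big endothelin to its active form. They were taken by gene symbol, and all 7 were found among the 58233 rows with an Ensembl identifier. The set was selected on the measured values of the same contrast, in which NPPB, EDN1 and ADM were higher in Q63E. The values of the members are therefore given as a description, without p-values.

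The libraries were made from total RNA of T24, an established line from a human transitional cell carcinoma of the bladder. One group carries the empty vector (VEC, n = 3) and the other a constitutively active mutant of the small GTPase RhoC (Q63E, n = 3). Both were transduced with lentivirus and selected with puromycin. The labels name neither the promoter that drives the mutant nor whether the lines are pools or clones. Whether each library came from its own culture is also not given, so a p-value here speaks of library-to-library spread, possibly a technical one.

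Natriuretic peptides are hormones of the heart that relax vessels and promote salt loss through the guanylyl cyclase receptor NPR1 and cyclic GMP. Endothelin-1 is a strong vasoconstrictor of endothelial and epithelial cells, urothelium included, and acts on the receptors EDNRA and EDNRB. Adrenomedullin is a vasodilator known for its induction by hypoxia, and it binds CALCRL joined to RAMP2 or RAMP3.

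The deposited value per gene is read as FPKM (fragments scaled by transcript length and by library depth), which allows levels to be compared between genes. Summed values per library ran from 726929 to 769026. RHOC, the transduced gene, lay between 218 and 232 in VEC and between 1726 and 1770 in Q63E (log2 difference 2.94, adjusted p = 3.12e-07 in limma). Endogenous and transduced RHOC cannot be told apart in these values. Of the 14 urothelial and epithelial markers listed, KRT7, KRT8 and KRT18 were abundant and rose (log2 differences 0.49, 0.76 and 0.61), while UPK3A, KRT5 and CDH1 were listed at 0 in all 6 libraries. PPARG rose by 0.65, in a stretch where all 20 nearest tested genes were above 0 with a median of 0.36. GATA3 went the other way, with 1.3, 3.37 and 0.71 in VEC and 0.16, 0.77 and 0.16 in Q63E. Its log2 difference of −0.95 did not pass (adjusted p = 0.121 in limma), nor did that of FOXA1 (0.17, adjusted p = 0.469). GATA3 reached the mean of at least 1 required for testing only through VEC. Other uroplakins were near 0, with UPK1A at 0.53 or below. The marker list summed to between 2128 and 2169 in VEC and between 3213 and 3320 in Q63E, nearly all from KRT7, KRT8 and KRT18. Its part in the results was not tested.

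Of the members, 6 have a promoter window in the RefSeq table used (GRCh38.p14), with 11 windows between them. NPPB has none. The 250 bases before the EDN1 start nearest to the annotated gene start are printed here, because among NPPB, EDN1 and ADM only EDN1 had windows with any of the motifs searched. They lie at chr6:12290111-12290360 on the plus strand, where GENCODE release 29 has no exon. Capitals mark the matches to GATA and to ACGTG, the core of the hypoxia response element, both on the reverse strand.

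EDN1: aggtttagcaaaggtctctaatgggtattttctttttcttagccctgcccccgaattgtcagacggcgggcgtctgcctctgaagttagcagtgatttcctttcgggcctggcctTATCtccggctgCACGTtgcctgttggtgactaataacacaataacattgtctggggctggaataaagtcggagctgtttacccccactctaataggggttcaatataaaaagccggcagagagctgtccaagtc

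The GATA match began 135 bases before the start and the ACGTG match 123 bases before it. Of 35114 promoter windows of 250 bases, 45.6% held GATA and 18.5% held ACGTG on either strand. The motifs TGANTCA of AP-1 (6.57% of windows), CATTCC of TEAD factors (11.9%) and the CArG box of SRF (1.16%) were not found in these letters. The search took exact matches only, so sites that differ from these patterns by a letter are missed. Another EDN1 window held ACGTG at 2 places, and the third held GATA and CATTCC. The windows of ADM, ADM2 and ECE1 held none of the 5 motifs, and that of EDN2 held CATTCC. That of NPPA held 2 GATA matches and TGANTCA, a near-palindrome that matched on both strands at 1 place. The ADM and NPPA windows lie inside the annotated genes, so the bases before the annotated starts of these genes were not searched. Whether the motifs occur there is therefore not known. A match describes the letters alone.

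NPPB (ENSG00000120937, GRCh38 chromosome 1, 11857464 to 11858931, minus strand) encodes the precursor of brain natriuretic peptide. Its values were 0.28, 0.69 and 0.34 in the VEC libraries and 15.51, 16.74 and 19.43 in the Q63E libraries. Every Q63E library lay far above every VEC library. The means were 0.437 ± 0.221 for VEC against 17.2 ± 2.005 for Q63E (SD, n = 3 each), a ratio of 39.5. On the log2(value + 1) scale, which understates the change of low genes, the difference was 3.67 (SE 0.147). With a pseudocount of 0.1 it was 5.08. This difference ranked 3 among the 13346 genes with a mean of at least 1, counted from the top. NPPB passed that minimum only through Q63E, so it had to differ between groups.

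NPPA (ENSG00000175206, chromosome 1 from 11845709 to 11848345, minus strand) encodes atrial natriuretic peptide and is the neighbour of NPPB. It was listed at 0.13, 0.16 and 0 in VEC and at 0 in all Q63E libraries. The paralogs therefore stood apart: NPPB was at 17.2 in Q63E where NPPA was listed at 0. NPPA overlaps the end of CLCN6, a chloride transporter gene on the other strand, and no strand setting is given for the counting, so fragments of these genes may be shared. CLCN6 had mean values of 5.41 in VEC and 7.29 in Q63E (limma adjusted p = 0.0594).

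EDN1 (ENSG00000078401, chromosome 6 from 12290363 to 12297194, plus strand) had values of 2.92, 2.59 and 2.20 in VEC and 10.23, 9.67 and 11.68 in Q63E. The groups did not overlap. The mean went from 2.57 ± 0.360 to 10.5 ± 1.04 (SD, n = 3 each), a ratio of 4.10, and the log2 difference was 1.69 (SE 0.116), ranked 51 from the top. EDN2 (ENSG00000127129, chromosome 1 from 41478775 to 41484673, minus strand), the precursor of endothelin-2, lay at 0, 0.09 and 0.18 in VEC and at 0, 0.05 and 0 in Q63E. These values overlap and are too close to the 2-decimal limit of the tables for a comparison.

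ECE1 (ENSG00000117298, chromosome 1 from 21217247 to 21345572, minus strand) went the other way from its substrate EDN1. Its values were 45.11, 46.55 and 46.19 in VEC and 37.69, 39.07 and 35.03 in Q63E. All Q63E libraries were below all VEC libraries, by a small amount: the means were 45.9 ± 0.749 and 37.3 ± 2.05 (SD, n = 3 each), with a log2 difference of −0.30 (SE 0.051), ranked 2318 from the bottom. The level of ECE1 was 18.1 ± 2.78 times that of EDN1 in VEC and 3.57 ± 0.529 times in Q63E. The antisense gene ECE1-AS1, which overlaps it, was at 0.13 or below in each library.

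ADM (ENSG00000148926, chromosome 11 from 10304680 to 10307397, plus strand) had the highest level of the 7 genes in both groups. Its values were 62.06, 47.94 and 55.29 in VEC and 108.54, 107.93 and 107.07 in Q63E. The VEC libraries were spread (coefficient of variation 12.8%), while those of Q63E were close together (coefficient of variation 0.685%), and the groups did not overlap. The means were 55.1 ± 7.06 and 107.8 ± 0.739 (SD, n = 3 each), a ratio of 1.96, and the log2 difference was 0.96 (SE 0.088), ranked 260 from the top. ADM-DT, a transcript that starts on the other strand upstream of ADM, was at 0.86, 0.33 and 0.56 in VEC and at 1.55, 0.98 and 1.52 in Q63E. It was below the minimum mean and was not tested.

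ADM2 (ENSG00000128165, chromosome 22 from 50481556 to 50486440, plus strand) encodes intermedin, a relative of adrenomedullin. Its values of 1.90, 1.58 and 2.01 in VEC and 1.86, 1.57 and 1.24 in Q63E overlapped, with a log2 difference of −0.15 (SE 0.157). Of the 3 ligand pairs, the groups of NPPB, EDN1 and ADM did not overlap, and those of NPPA, EDN2 and ADM2 did. NPPB, EDN1 and ADM were chosen on this contrast, and the groups did not overlap for 43.9% of all genes tested. NPPA and EDN2 were close to 0 in both groups. Nothing is therefore read from this pattern.

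**Figure D1:**
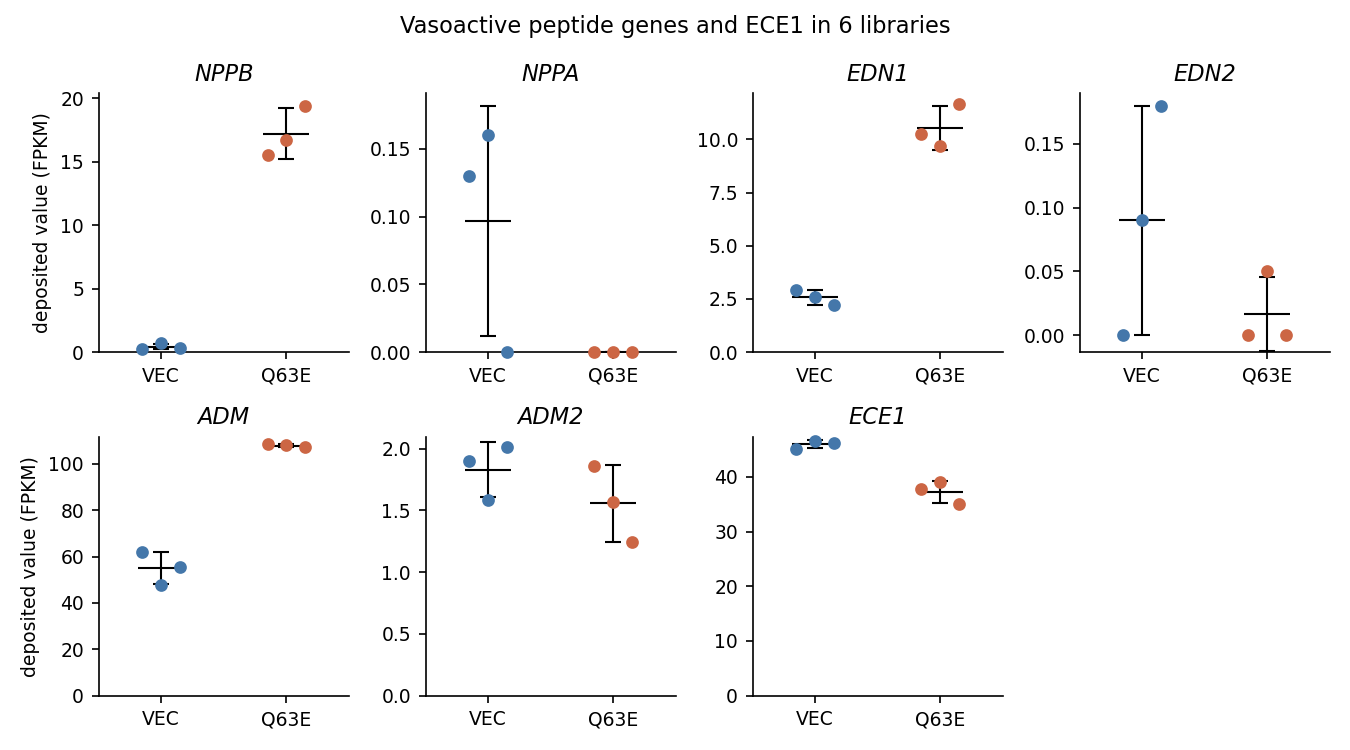
Deposited values (FPKM, linear axis, a scale of its own for each gene) of the 7 genes in the VEC and Q63E libraries. Points are libraries, the long bar is the group mean and the whiskers are 1 SD (n = 3); NPPB, EDN1 and ADM lie higher in all 3 Q63E libraries, ECE1 lies lower, and NPPA, EDN2 and ADM2 overlap.

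In VEC the order of mean levels was ADM, ECE1, EDN1, ADM2, NPPB, NPPA and EDN2. In Q63E it was ADM, ECE1, NPPB, EDN1, ADM2, EDN2 and NPPA. NPPB thus moved from below ADM2 to above EDN1. Each member lay above the next in every library of its group except NPPA and EDN2, whose values overlapped. Some gaps were small: in VEC the lowest ADM value was 47.94 beside a highest ECE1 value of 46.55, and the lowest EDN1 value was 2.20 beside a highest ADM2 value of 2.01. Among the tested genes, 0.584% had a VEC mean below that of NPPB and 58.4% had a Q63E mean below its Q63E mean. For EDN1 these shares were 15.3% and 44.9%, and for ADM 85.0% and 92.9%.

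The 6 precursor genes summed to 60.1 ± 7.12 for VEC and to 137.2 ± 1.94 for Q63E (SD, n = 3 each). ADM made up 91.6% ± 1.04 of that sum in VEC and 78.6% ± 1.60 in Q63E. NPPB held 0.761% ± 0.473 in VEC and 12.6% ± 1.29 in Q63E, and EDN1 4.29% ± 0.610 and 7.67% ± 0.647. The sum was thus mostly ADM in every library, and NPPB was next after ADM in Q63E. In total RNA from a culture, more cells of a kind and more RNA per cell cannot be told apart.

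**Figure D2:**
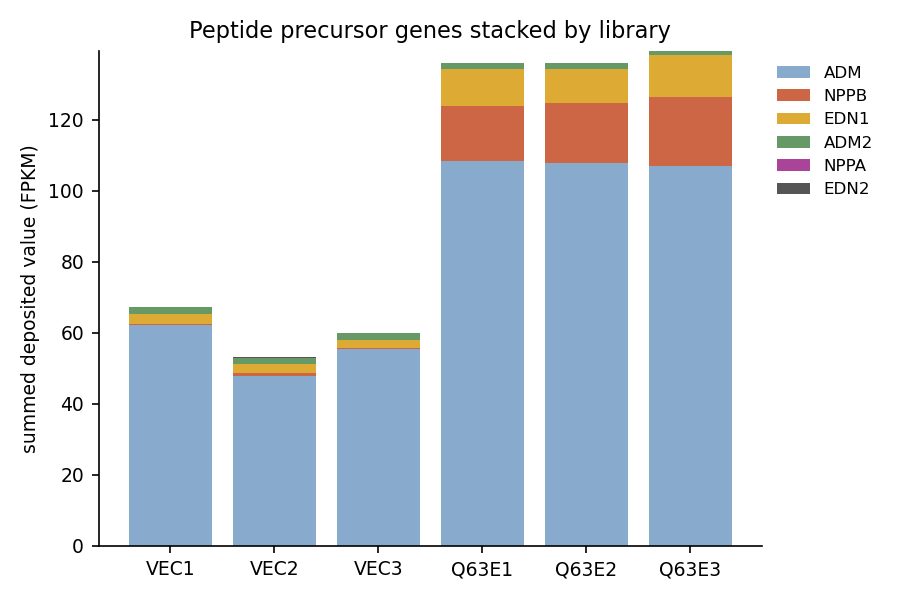
Summed deposited value (FPKM) of the 6 precursor genes in each library, stacked by gene. ADM fills most of each bar, and the NPPB and EDN1 layers are thicker in the 3 Q63E libraries; NPPA and EDN2 are too low to see.

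The test across all genes was limma on log2(value + 1), two-sided, with Benjamini-Hochberg adjustment and a threshold of 0.05. It ran on 13346 genes and 5 of the members (NPPB, EDN1, ADM, ADM2 and ECE1), and NPPA and EDN2 were under the minimum mean. Of all genes tested 25.3% were called, 11.3% higher and 14.0% lower in Q63E, and the groups did not overlap for 43.9%. Among the 5 members 3 were called higher and 1 lower, and for 4 the groups did not overlap. Since the members were chosen on this contrast, nothing is read from these counts. The median log2 difference was 0.96 over the 5 members, which is the value of ADM, and −0.00 over all genes tested. For the same reason nothing is read from this median.

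**Figure D3:**
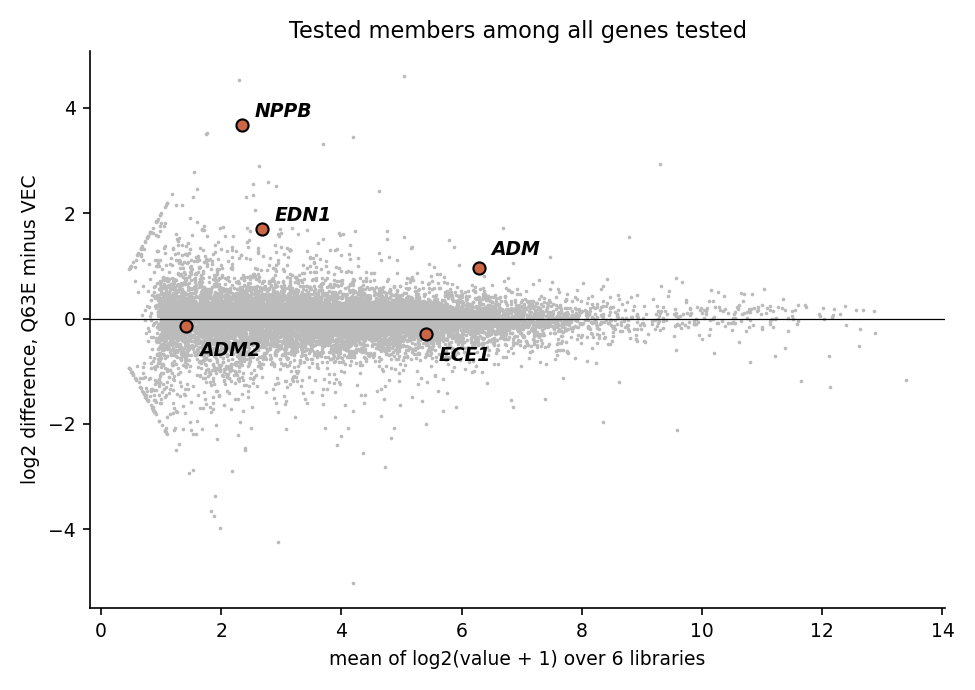
Log2 difference between Q63E and VEC against the mean of log2(value + 1) over 6 libraries, for the 13346 genes tested (grey). The 5 tested members are marked. NPPB at 3.67 stands near the top edge, EDN1 at 1.69 ranks 51 from the top and ADM at 0.96 ranks 260. ADM2 is at −0.15 and ECE1 at −0.30.

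Earlier results of these data showed stretches of chromosomes that shift as a whole, so each member was set beside the 20 nearest tested genes. Around NPPB their median log2 difference was 0.01, with 11 above 0 and 9 below. The highest of them was FBXO2 at 0.69, an F-box gene. Around EDN1 the median was −0.11, with 14 of 20 below 0, and around ADM it was −0.05. The differences of NPPB, EDN1 and ADM minus these medians were 3.66, 1.80 and 1.02. Around ECE1 the median was 0.11, so that ECE1 minus its neighbours was −0.40. ADM2, near the end of chromosome 22, had neighbours with a median of 0.02. A neighbour of ADM, the small nucleolar RNA gene SNORA23, had a higher log2 difference of 1.35 that rests on 1 library, at 15.44 in Q63E replicate 1 and listed at 0 in the other 5 (adjusted p = 0.402 in limma).

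**Figure D4:**
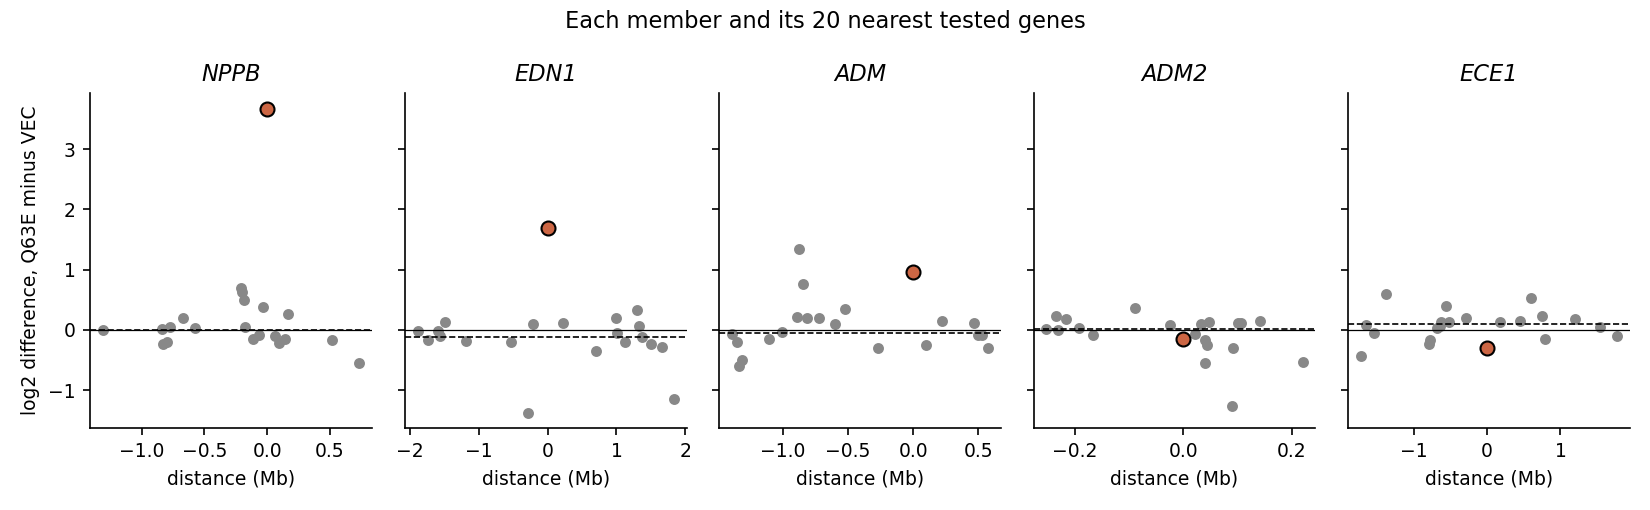
Log2 difference between Q63E and VEC of each tested member (orange, at distance 0) and of its 20 nearest tested genes (grey) against distance along the chromosome in Mb. The dashed line is the neighbours' median, between −0.11 and 0.11 in the 5 panels; NPPB and EDN1 lie above all of their neighbours, while ADM has 1 neighbour, SNORA23, above it.

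The receptors, enzymes and effectors of the 3 hormone systems were listed by role. The lists were made with earlier results of these data known, so the share called is a description. Of 45 such genes 20 were above the minimum mean; 5 rose and 6 fell (55.0% called, against 25.3% of all genes), and their median log2 difference was −0.10. For these genes the adjusted p-values below are from limma over all 13346 genes.

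In the natriuretic peptide system 7 of 17 genes were tested, 2 rose and 1 fell. The receptors NPR1, NPR2 and NPR3 were all low. NPR1, the receptor of the NPPB product, was at 0.083 in VEC and 0.203 in Q63E, and NPR3, the clearance receptor, at 0.083 and 0.067. NPR2, the receptor of C-type natriuretic peptide, had values of 1.19, 0.79 and 0.52 in VEC and 1.37, 3.17 and 2.61 in Q63E. NPR2 reached the minimum mean only through Q63E, with means of 0.833 in VEC and 2.38 in Q63E. Its log2 difference of 0.86 did not pass (adjusted p = 0.0548). It passed without Q63E replicate 1 (adjusted p = 0.0274) and with the same total in each library (0.0465). In every other setting in which NPR2 was fitted it did not pass (adjusted p from 0.0525 to 0.147 in limma). Among these were no filter on low values (0.119) and any other single library left out.

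Among enzymes that cut these peptides, MME rose. MME (neprilysin) degrades natriuretic peptides, endothelin and adrenomedullin, and had values of 29.31, 32.74 and 35.15 in VEC and 69.00, 63.02 and 62.53 in Q63E. The groups did not overlap, and the log2 difference was 0.98 (SE 0.076, adjusted p = 0.000425). CORIN, the protease that activates the NPPA precursor, was at 0.053 in VEC and 0.103 in Q63E. FURIN, which cuts the NPPB precursor, was at 22.4 ± 2.61 and 20.9 ± 0.684 (SD, n = 3; adjusted p = 0.482 in limma). The insulin-degrading enzyme gene IDE had a log2 difference of 0.16 (adjusted p = 0.0482), a call that was lost with each of the 6 libraries left out (adjusted p from 0.0677 to 0.139).

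PDE2A, a phosphodiesterase that breaks down cyclic GMP and cyclic AMP, fell. Its values were 6.18, 6.14 and 7.10 in VEC and 2.32, 3.33 and 1.83 in Q63E, with a log2 difference of −1.12 (SE 0.170, adjusted p = 0.00497). PDE5A, which is specific for cyclic GMP, differed within groups, with 0.84, 1.23 and 42.38 in VEC and 4.75, 8.51 and 14.08 in Q63E (adjusted p = 0.693). It is named because of its spread, after its values were seen.

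In the endothelin system 8 of 14 genes were tested, 1 rose and 4 fell. EDNRA, the endothelin A receptor, fell: its values were 2.06, 2.08 and 1.99 in VEC and 0.09, 0.15 and 0.08 in Q63E. The groups were far apart, with means of 2.04 ± 0.0473 and 0.107 ± 0.0379 (SD, n = 3 each), a 19.2-fold difference. EDNRA passed the minimum mean only through VEC, so it had to differ, and it drops under the minimum with any 1 VEC library left out or with a minimum of 5. In the fit with no filter on low values the log2 difference was −1.46 and the adjusted p 0.00121 in limma. EDNRB, the endothelin B receptor, and EDN3, the other ligand, were listed at 0 in all libraries.

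Further along that pathway the G protein genes GNAQ and GNA11 fell, by 0.44 and 0.34 on the log2 scale (adjusted p = 0.00717 and 0.0137). The 20 neighbours of GNAQ on chromosome 9 had a median of −0.39, and GNAQ minus that median was −0.05. Those of GNA11 had a median of −0.17, with 17 of 20 below 0, which left −0.18. PLCB4, a phospholipase C gene, rose from 15.5 ± 0.314 to 22.6 ± 1.16 (SD, n = 3; adjusted p = 0.00146 in limma). PCSK7, a proprotein convertase gene, fell by 0.46 (adjusted p = 0.0141), and by 0.31 with the median of its neighbours subtracted. ECE2, a relative of ECE1, was at 3.77 ± 0.856 in VEC and 3.33 ± 0.124 in Q63E (SD, n = 3; adjusted p = 0.589 in limma). PLCB1, another phospholipase C gene, had no steady level within groups, with 16.89, 37.37 and 63.48 in VEC and 29.35, 4.22 and 2.74 in Q63E (adjusted p = 0.124); it too is named for its spread.

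In the adrenomedullin system 5 of 14 genes were tested, 2 rose and 1 fell. The receptor chain CALCRL was at 0.32, 0.30 and 0.46 in VEC and at 0.18, 0.25 and 0.47 in Q63E, below the minimum mean. Of its partner chains, RAMP2 was at 0.103 and 0.293 and RAMP3 was listed at 0 in all libraries. RAMP1, which with CALCRL forms the receptor of calcitonin gene-related peptide, rose. Its values were 7.87, 8.55 and 11.13 in VEC and 17.93, 19.02 and 16.25 in Q63E, without overlap, and its log2 difference was 0.89 (SE 0.128, adjusted p = 0.00401).

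PAM, the enzyme that amidates adrenomedullin at its end, rose from 83.8 ± 5.92 to 105.2 ± 4.92 (SD, n = 3; log2 difference 0.33, adjusted p = 0.0121 in limma). GNAS, the G protein of the receptor, had a log2 difference of −0.11 (adjusted p = 0.0442). This call was lost with each of the 6 libraries left out (adjusted p from 0.0742 to 0.132), with the same total in each library (0.128) and with quantile normalization (0.0651).

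**Figure D5:**
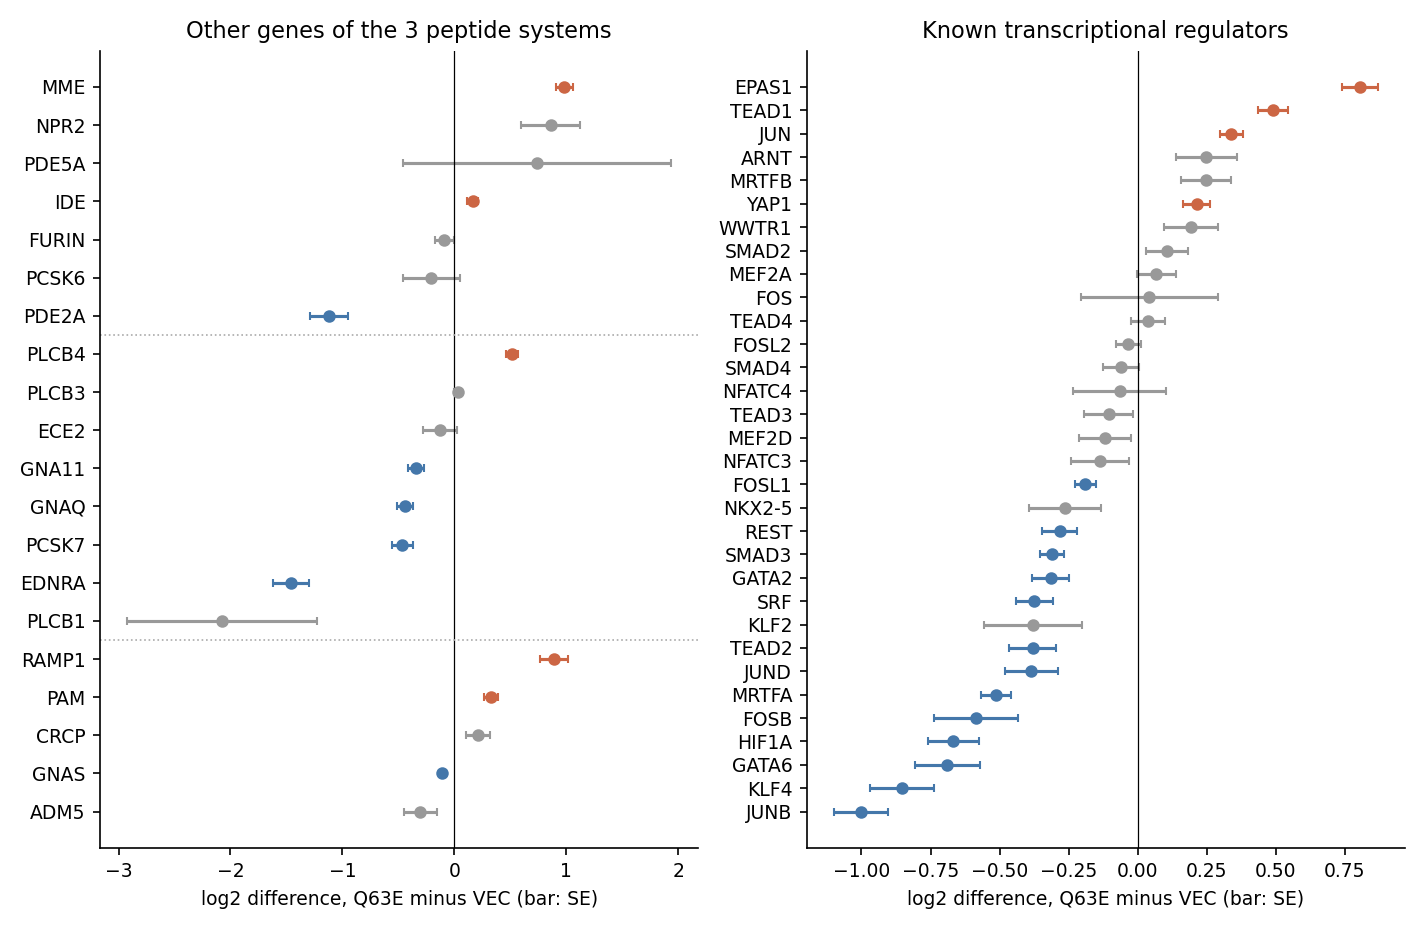
Log2 differences between Q63E and VEC with their SE for the tested genes of the natriuretic peptide, endothelin and adrenomedullin systems (left, top to bottom, split by dotted lines) and for known transcriptional regulators (right). Orange genes rose, blue genes fell and grey genes did not pass in limma; MME and RAMP1 lead the rises on the left and EDNRA the falls.

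Of 23 genes of other vasoactive peptide systems (angiotensin, kinins, apelin, urotensin, vasopressin, neurotensin and others), 22 were below the minimum mean, 10 of them at 0 in all libraries. The tested gene was APLN, the apelin precursor, which rose from 18.2 ± 0.585 to 22.6 ± 0.926 (SD, n = 3; log2 difference 0.30, adjusted p = 0.00964 in limma). Its receptor gene APLNR had a value in 1 VEC library, of 0.01.

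Factors known to act at the NPPB, NPPA, EDN1 or ADM genes were listed too: of 36, 32 were tested, 4 rose and 13 fell (53.1% called, against 25.3% of all genes), with a median log2 difference of −0.13. Without VEC replicate 3 the number called was 11, of which 8 fell. This list too was made with earlier results of these data known, so its share is a description. EPAS1 and HIF1A, the alpha subunits of hypoxia-inducible factors that act at ADM and EDN1, went opposite ways. EPAS1 had values of 31.97, 32.71 and 34.40 in VEC and 58.43, 62.91 and 54.16 in Q63E (log2 difference 0.80, adjusted p = 0.000464 in limma). HIF1A had 59.95, 66.99 and 57.72 in VEC and 38.85, 34.07 and 42.44 in Q63E (−0.67, adjusted p = 0.00347). In VEC each HIF1A value lay above each EPAS1 value, and in Q63E the order was the reverse.

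The zinc finger gene GATA6, whose product acts at natriuretic peptide genes in the heart, fell from 5.38 ± 0.615 to 2.95 ± 0.308 (SD, n = 3; adjusted p = 0.00753 in limma). AP-1 genes went both ways, and JUN, JUND and FOSL1 among them are named after their values were seen. JUN rose from 92.5 ± 1.75 to 117.2 ± 4.80 (SD, n = 3; log2 difference 0.34, adjusted p = 0.00222 in limma), while JUNB fell from 36.0 ± 4.78 to 17.3 ± 0.182 (SD, n = 3; adjusted p = 0.000895 in limma). FOSB had a log2 difference of −0.58 (adjusted p = 0.0343), which did not pass with VEC replicate 2 or 3 or any 1 of the Q63E libraries left out (adjusted p from 0.0819 to 0.102) or with no filter on low values (0.0851). FOSL1, the AP-1 gene with the highest level, fell by 0.19 (adjusted p = 0.0123, and 0.0513 with quantile normalization). JUND had a log2 difference of −0.39 (adjusted p = 0.0286), which did not pass without VEC replicate 2 or 3 or Q63E replicate 1 or 3 (adjusted p from 0.06 to 0.0809) or with no filter (0.0641). FOS and FOSL2 did not pass (adjusted p = 0.921 and 0.627). KLF4, a Krüppel-like factor, fell by 0.85 (adjusted p = 0.00327).

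TEAD1, a partner of YAP that binds M-CAT elements of cardiac genes, rose by 0.49 on the log2 scale (adjusted p = 0.00151). TEAD2 fell by 0.38 (adjusted p = 0.0192 in limma), and TEAD3 and TEAD4 did not pass (0.433 and 0.7). MRTFA, the SRF cofactor that responds to actin, fell by 0.51 (adjusted p = 0.00126). MRTFA lies on chromosome 22 where 19 of its 20 nearest tested genes were below 0, with a median of −0.46, and MRTFA minus that median was −0.05. SRF itself fell by 0.37 (adjusted p = 0.00858 in limma), and MRTFB did not pass (0.0943). The other called regulators were YAP1, with a log2 difference of 0.21 (adjusted p = 0.025 in limma), and GATA2, REST and SMAD3. Those of GATA2, REST and SMAD3 were −0.31, −0.28 and −0.31 (adjusted p = 0.0165, 0.0205 and 0.00363 in limma). SRF, MRTFB, TEAD2, TEAD3, TEAD4, YAP1, GATA2, REST and SMAD3 are named after their values were seen, and their neighbours were not examined.

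Markers of cardiac muscle and endothelium, known sources of these hormones, were low. Of 8 cardiac muscle markers 4 were listed at 0 in all libraries (MYH6, MYH7, MYL7 and TNNT2), and the list summed to between 4.77 and 5.07 in VEC and between 1.18 and 2.27 in Q63E. The lower sum rests on RYR2, a calcium channel gene, at 3.36 ± 0.475 in VEC and 0.0233 ± 0.00577 in Q63E (SD, n = 3). RYR2 passed the minimum mean only through VEC, so it had to differ; with no filter on low values its adjusted p was 0.00103 in limma. Without RYR2 the list summed to 1.16, 1.64 and 2.02 in VEC and to 1.15, 2.1 and 2.25 in Q63E, and the groups overlapped. The other tested marker was TNNI3, a troponin gene, at 0.80 ± 0.397 and 1.43 ± 0.516 (SD, n = 3; log2 difference 0.44, adjusted p = 0.26 in limma). TNNI3 reached the minimum mean only through Q63E. Of 9 endothelial markers 0 were above the minimum mean. Their sum ran from 1.19 to 1.69 in VEC and from 0.57 to 1.59 in Q63E, EMCN was listed at 0 in all libraries and PECAM1 was at 0.04 or below.

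Fibroblast and smooth muscle markers summed to between 2.03 and 2.33 in VEC and between 2.62 and 4.09 in Q63E, led by COL1A1, and their part in the results was not tested. The leukocyte markers PTPRC and CD3E were listed at 0 in all libraries. That list summed to between 18.05 and 20.04 in VEC and between 9.80 and 11.4 in Q63E, nearly all from CD68, a lysosomal protein gene, which fell (log2 difference −0.82, adjusted p = 0.000847 in limma).

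The protein-coding genes whose pattern over the 6 libraries was most like that of each member were found by the Euclidean distance between log2(value + 1), centred on each gene's VEC mean. For NPPB these were SERINC2 (distance 0.55), DMKN (0.73) and RHOC itself (1.34), the last with a log2 difference of 2.94 against 3.67. SERINC2 had values of 3.91, 4.58 and 5.07 in VEC and 57.62, 61.74 and 58.19 in Q63E. For EDN1 they were RBP7 (0.15), a retinol-binding protein gene, TMEM40 (0.24) and PHEX (0.27), a peptidase gene. All 20 nearest tested genes of TMEM40 were above 0, with a median of 0.385. The log2 difference of TMEM40 was 1.67, and 1.29 with that median subtracted. RBP7 had values of 4.26, 4.07 and 3.73 in VEC and 15.09, 13.54 and 18.08 in Q63E. For ADM they were SH3PXD2A (0.19), FADS2 (0.23), a fatty acid desaturase gene, and MARCHF4 (0.24). FADS2 had values of 15.41, 10.45 and 11.33 in VEC and 23.29, 23.54 and 23.25 in Q63E, so like ADM it was spread in VEC and narrow in Q63E, with VEC replicate 1 the highest and VEC replicate 2 the lowest in VEC. The distances rest on 6 libraries and are a description.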

How the data were processed

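RNA-seq libraries of T24 cells (3 VEC, 3 Q63E) were used as 1 deposited table each. Per the submitters' processing notes, which state neither roles nor order, the tools were HISAT2 2.1.0 and Bowtie2 and the build was GRCh38.p10. For the counting program, its strand setting, the annotation and filters the entry is: not given in the sources used here. Values deposited by the authors have 2 decimals and were taken to be FPKM from their size and sum, since no header or label gives a unit. Values of low single-transcript genes were searched for whole-read steps: at best 23.8% to 25.1% per library came within 0.1 of a whole number, against 20% with no steps. Depth is therefore unknown, and no interval or floor is given.

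Each of 58882 rows was used except 649 assembled loci without a gene name, which held 0.274% to 0.511% of a library's sum. Symbols came from a gene table (57392 rows paired), positions from GENCODE release 29 and promoters from RefSeq (6 of 7 members matched). Genes with a mean of at least 1 were fitted on log2(value + 1) with limma 3.58.1 (lmFit, eBayes with trend, group alone) in R 4.3.3; the fit was tested on simulated data. Figures and tables were made in Python 3.11.15.

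The members, lists and tests were chosen with earlier results of these data known. Named are the 7 members, the main receptors and enzymes, up to 8 called genes of each list with the largest change, RHOC, genes overlapping a member and the 3 genes most like NPPB, EDN1 and ADM. Alternatives changed the pseudocount, the filter, the scaling, the trend, the replicate block, single libraries and the regional median. A planned comparison of the precursor proteins was not made.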

Additional observations from a re-analysis of the deposited data

How the results depend on the processing

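The log2 differences of the 5 tested members kept their sign under every alternative in which they were fitted (ADM2 is under a minimum mean of 5). The counts of members called, added after seeing the data, were 3 higher and 1 lower in each. In the main fit 25.3% of all genes tested were called. Since the members were chosen on this contrast, nothing is read from these counts. Against 3.67 for NPPB, the value was 5.08 with a pseudocount of 0.1, 4.26 with 0.5 and 3.96 with the same total in each library, a scaling that also makes the pseudocount smaller relative to the values. For EDN1, 1.69 became 2.00 and 1.85 with these pseudocounts. For ECE1, −0.30 became −0.40 with the median of its chromosome neighbours subtracted. With 1 library left out NPPB ran from 3.59 to 3.79, EDN1 from 1.62 to 1.76, ADM from 0.87 to 1.05, ADM2 from −0.24 to −0.06 and ECE1 from −0.33 to −0.25. Over all genes 3383 were called (1510 higher), between 2350 and 2630 with 1 library left out (994 to 1153 higher, the fewest without Q63E replicate 3). Of the other genes of the 3 systems between 8 and 11 were called with 1 library left out, and of the regulators between 11 and 16 (8 to 13 lower, the fewest without VEC replicate 3).

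With the replicate number as a block, 2208 genes were called (942 higher), and of the other genes of the 3 systems 7 (3 higher). Among named genes the block ended the calls of PAM (adjusted p = 0.0524 in limma), GNA11 (0.0561), IDE (0.101), GNAS (0.162), FOSB (0.0632) and FOSL1 (0.0616). Deviations of same-numbered libraries from their group means correlated at r = −0.042, −0.009 and −0.025 across genes, so the libraries share only a number. The block fits a level for each replicate number on 6 libraries, which leaves less from which to estimate the spread. Unknown depth and 2-decimal values limit what can be said of genes near 0, NPPA and EDN2 among them.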

Other observations

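Some listed genes were under the minimum mean and untested, but had groups that did not overlap. They are named after their values were seen. Among genes tested the groups did not overlap for 43.9%, and for untested genes this share was not computed. Higher in Q63E were the epithelial adhesion gene EPCAM, PDE3A and RAMP2. EPCAM was at 0.29, 0.29 and 0.36 in VEC and at 1.75, 1.39 and 1.41 in Q63E. PDE3A, a phosphodiesterase gene, was at 0, 0.02 and 0 in VEC and at 0.14, 0.17 and 0.33 in Q63E. RAMP2 was at 0.15, 0.16 and 0 in VEC and at 0.53, 0.18 and 0.17 in Q63E. Its groups are kept apart only by 0.16 against 0.17, a step in the last decimal, too little for a comparison. Others were lower in Q63E, among them PRKG1, GATA4 and DPP4. PRKG1, a kinase activated by cyclic GMP, was at 0.96, 1.18 and 1.67 in VEC and at 0.11, 0.16 and 0.12 in Q63E. GATA4, a factor that acts at natriuretic peptide genes, was at 1.05, 1.12 and 1.22 in VEC and at 0.42, 0.11 and 0.39 in Q63E. DPP4, a peptidase that trims brain natriuretic peptide, was at 0.47, 0.36 and 0.43 in VEC and at 0.17, 0.23 and 0.15 in Q63E.

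CD83, which is among the 20 tested genes nearest to EDN1, had a log2 difference of −1.15 (adjusted p = 0.000633 in limma), the opposite direction to EDN1.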
